A study of Mus musculus with 20 samples.

Results

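The repeat names described here are the older members of the LINE-1 (L1) retrotransposon group in the counts of mouse male germ cells. They were chosen by a rule on names, set with earlier results of these data known. Each repeat name that starts with L1 or Lx but not with L1Md_ was taken, which gave 100 of the 1217 repeat names counted. Of these, 28 carry rodent names (3 L1VL, 4 L1_Mus, 3 L1_Mur, L1_Mm, L1_Rod and 16 Lx names), 70 start with L1M and 2 with L1P. The 6 L1Md_ names, the young mouse families, were left out of the choice and serve below as a comparison. A name pools all genomic copies that the annotation assigns to it, so its count is a sum over many loci and cannot say which copies were read.

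RNA sequencing was done on total RNA of germ cells of male mice on a mixed strain background, isolated by flow sorting on green fluorescence and amplified with Ovation kits. The cells were Tex15-/- (knockout) or Tex15+/- (heterozygous), so the comparison cells also lacked 1 copy of Tex15. Each genotype was sampled at embryonic day 16.5 (e16.5), embryonic day 18.5 (e18.5) and postnatal day 2 (d2), with 3 libraries per group at the embryonic ages and 4 at d2, 20 in all. The series text calls the replicates biological triplicates. The labels do not say whether each is a separate animal, which allele was used or what drives the fluorescence, and p-values measure the spread between these libraries. In such bulk samples fewer cells of a type and less RNA per cell cannot be told apart.

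L1 elements are retrotransposons that copy themselves through an RNA with the help of an RNA-binding protein and a reverse transcriptase they encode. Most copies are cut short or mutated, and older families hold few or no copies that can still move. L1Md_ families are the youngest in the mouse, names with L1_Mus, L1VL and Lx mark older families found in rodents, and L1M names mark families shared across mammals, where L1MA is the youngest and L1ME the oldest letter. L1P names were first given to primate families. Fetal male germ cells lose DNA methylation and regain it before birth, at the time when small RNAs bound to PIWI proteins (piRNAs) direct methylation to young L1 copies. TEX15 is known as a nuclear partner of that piRNA machinery in mice.

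Libraries held 14328826 to 31496510 counts, of which 43.2 to 65.0% fell in repeats and the rest in genes, and the 100 names took 14.9 to 21.5% of all repeat counts. Levels are given in CPM, counts scaled to each library's gene counts with TMM factors (trimmed mean of M values, a library size correction), and are not corrected for the length or copy number of a name, so they are compared between libraries and not between names. Tex15 lay at 3.56 to 5.33 CPM in knockout and 1726 to 2101 CPM in heterozygous libraries at e16.5, and at 1.70 to 4.40 CPM in knockout and 1266 to 1769 CPM in heterozygous libraries at e18.5. At d2 it lay at 2.04, 2.47 and 2.60 CPM in knockout replicates 1, 3 and 4 and at 101 CPM in knockout replicate 2, against 612 to 1013 CPM in heterozygous libraries. That replicate also had the lowest total count of all libraries, and d2 counts of called names are given with and without it. Heterozygous replicate 3 of e18.5 stood apart as well, with L1Md_ names summing to 57678 CPM against 26829 and 32292 CPM in the other heterozygous libraries of that age. Germ cell markers (9 of 9 measured) summed to 3350 to 6761 CPM in all libraries. Stroma markers (8 of 8 measured) summed to 109 to 318 CPM and endothelial markers (5 of 5 measured) to 75.2 to 150 CPM. Sertoli cell markers at d2 summed to 54.9 to 76.9 CPM in knockout and 74.6 to 89.6 CPM in heterozygous libraries. Leydig cell markers (6 of 6 measured) summed to 12.9 to 111 CPM, with Insl3 at 0 in each library. Red blood cell markers (6 of 6 measured) summed to 3.28 to 21.3 CPM, with Hba-a1, Hba-a2, Hbb-b1 and Hbb-b2 at 0. The part of these cells in the repeat levels was not tested.

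The genotypes were compared at each age. At e16.5 none of the 100 names was called. At e18.5, 5 of 28 rodent names (17.9%, beside 7.52% of all repeat names) rose in knockout cells, led by L1VL1 at 1.82-fold, and at d2, 21 rodent names (75%, beside 8.51% of all repeat names) rose together with 2 of 69 L1M names tested (2.9%). No member fell at any age in this scaling, on gene counts. The e18.5 calls depended on single libraries, while 15 of the 23 d2 calls were made whichever d2 library was left out.

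**Figure D1:**
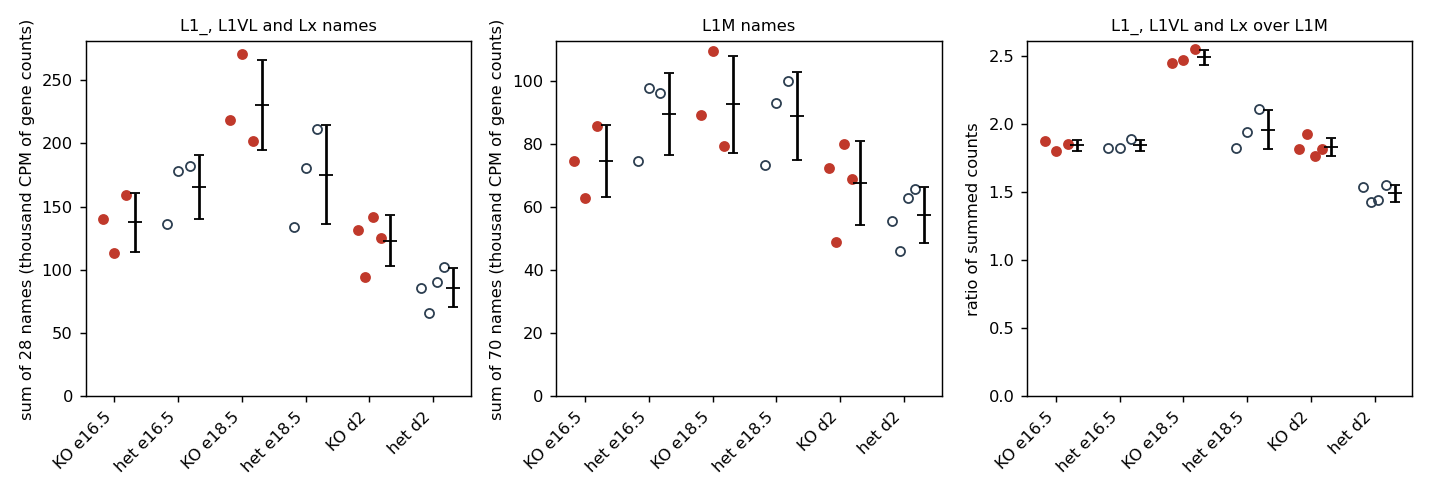
Summed levels of the 28 rodent names (left) and the 70 L1M names (middle) in CPM of gene counts, and the ratio of their summed counts (right), 1 point per library, with mean and SD beside each group. The knockout ratios of 2.44 to 2.55 at e18.5 lie above the heterozygous ones of 1.82 to 2.11, and those of 1.77 to 1.93 at d2 above 1.43 to 1.55, while both genotypes share 1.80 to 1.89 at e16.5.

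Set against the L1M names of the same library, the rodent names gave a measure that needs no scaling between libraries. Summed counts of the 28 rodent names were 1.87, 1.80 and 1.85 times those of the 70 L1M names in knockout libraries at e16.5, against 1.82, 1.82 and 1.89 in heterozygous libraries. At that age the genotypes overlapped. At e18.5 the ratio was 2.44, 2.47 and 2.55 in knockout libraries and 1.82, 1.94 and 2.11 in heterozygous libraries, and at d2 it was 1.82, 1.93, 1.77 and 1.82 in knockout and 1.54, 1.43, 1.44 and 1.55 in heterozygous libraries. The genotypes did not overlap at either later age, knockout replicate 2 of d2 included, which had the highest knockout ratio. That library had the lowest rodent sum of the d2 knockout libraries, 94289.8 CPM, within the heterozygous range. Its L1M sum was low as well, at 48937 CPM against 68993 to 80164 CPM in the other knockout libraries. In heterozygous libraries of d2 the L1M sum was 45978 to 65868 CPM. These ratios are given as a description, without a test. Summed levels relative to gene counts overlapped between the genotypes at both later ages. At e18.5 the rodent names summed to 217986, 270174 and 202126 CPM in knockout and 133705, 180721 and 211162 CPM in heterozygous libraries, and the L1M names to 89189, 109411 and 79280.3 CPM in knockout and 73343, 93205 and 100141 CPM in heterozygous libraries. At d2 the rodent names summed to 131393, 94289.8, 141535 and 125374 CPM in knockout and 85371, 65626, 90728 and 102182 CPM in heterozygous libraries.

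At e16.5, the youngest age, the comparison asks whether older L1 names differ between genotypes before the later ages. In edgeR's quasi-likelihood test with Benjamini-Hochberg adjustment over all repeat names, used for every adjusted p here unless stated, 0 of 100 names were called. DESeq2 also called 0, and 8 names had an unadjusted p under 0.05. Of all 1113 repeat names tested, 0.0898% were called higher and 0.18% lower. Log2 fold changes, knockout over heterozygous, had a median of -0.30 in rodent names, -0.29 in L1M names and -0.21 in the 2 L1P names, close to the -0.27 of all repeat names. With scaling on the repeat counts themselves (TMM factors of their own) these medians were -0.04 for rodent names, -0.03 for L1M names and -0.01 for all repeat names. Such factors centre the repeats by construction, so these values do not bear on the shift relative to genes.

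L1VL1, a rodent family, measured 847, 662 and 949 CPM in knockout libraries and 719, 1044 and 1057 CPM in heterozygous libraries at e16.5. Heterozygous replicate 1 lay within the knockout range, and the groups overlapped (log2 fold change -0.22, SE 0.20, adjusted p = 0.409). Under TMM scaling of the repeat counts its value was 0.04. Over the other L1VL and L1_ names the log2 fold change ran from -0.35 in L1_Mus4 to -0.14 in L1_Mus3, and it was -0.29 in Lx. The abundant Lx7, Lx8 and Lx9 had -0.29, -0.28 and -0.28, and the most abundant L1M names L1M2, L1M4 and L1M5 -0.32, -0.27 and -0.29. For 0 names did all knockout libraries lie above all heterozygous ones, where 0.539% of all repeat names did. Only L1M7, an L1M name singled out after its values were seen, lay below in each, at 112, 98.7 and 113 CPM in knockout and 126, 146 and 150.3 CPM in heterozygous libraries, where 11.1% of all repeat names did. The Sertoli cell marker list (8 of 8 measured, none at 0 throughout) summed to 28.04 to 35.9 CPM in knockout and 42.2 to 48.2 CPM in heterozygous libraries at this age, and its part in these values was not tested.

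Of the 28 rodent names 5 were called higher in knockout cells at e18.5 (17.9%) and 0 lower, whereas of all 1130 repeat names tested 7.52% were called higher and 0.354% lower. Each of the 28 had a positive log2 fold change, as did 824 of the 1130 repeat names and 51 of 70 L1M names. Those of the rodent names ran from 0.18 in Lx8 to 0.87 in L1VL1, with a median of 0.53 where all repeat names had 0.11. Knockout libraries were all above heterozygous ones in 19 of the 28, where 15.4% of all repeat names were. By start of the name the medians were 0.64 for L1VL, 0.59 for L1_Mur, 0.56 for L1_Mus and 0.50 for Lx. The young L1Md_ names had a median of 1.37, and 6 of 6 rose.

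L1VL1 reached 1809, 2042 and 1752 CPM in knockout libraries at e18.5, against 679, 942 and 1447 CPM in heterozygous libraries. All knockout values were above all heterozygous ones, and heterozygous replicate 3 was the highest of its group. The increase was 1.82-fold (log2 fold change 0.87, SE 0.21, adjusted p = 0.000712). The threshold was missed when heterozygous replicate 2 was left out (adjusted p = 0.0553). Scaled on repeat totals, L1VL1 missed it as well (adjusted p = 0.057). Per 100 counts in L1M names, L1VL1 had 1.87 to 2.21 counts in knockout and 0.925 to 1.44 in heterozygous libraries.

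**Figure D2:**
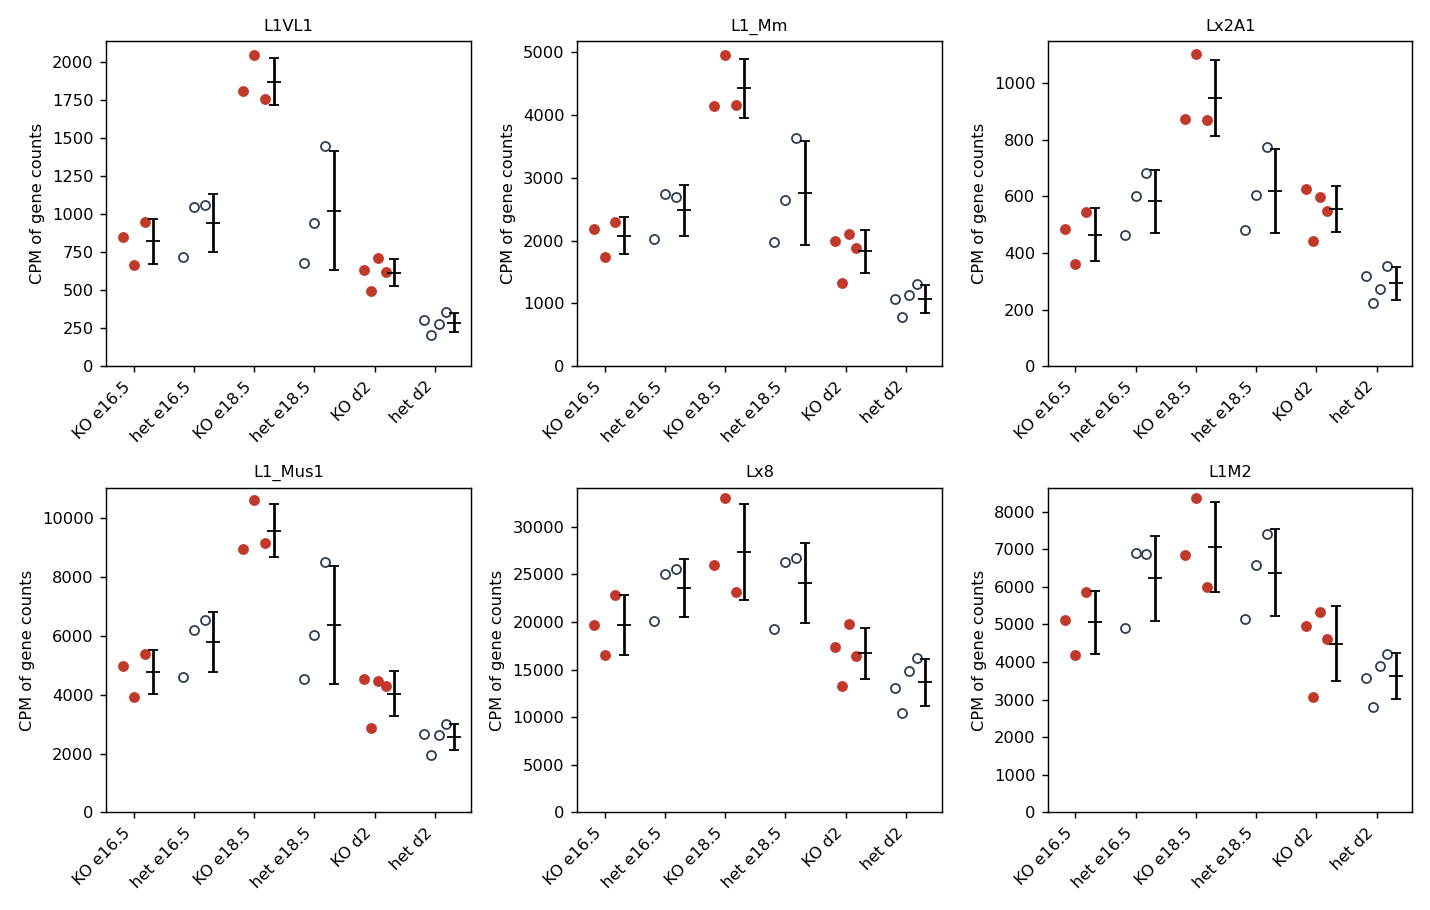
Levels of 6 repeat names in CPM of gene counts, 1 point per library (filled, knockout; open, heterozygous), with mean and SD beside each group; the vertical axes start at 0 and differ between names. In L1VL1, L1_Mm and Lx2A1 the knockout libraries lie above the heterozygous ones at e18.5 and d2, in L1_Mus1 at e18.5, while in Lx8 and L1M2 the genotypes overlap at each age.

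L1_Mm, a mouse-named family, measured 4145, 4967 and 4164 CPM in knockout and 1987, 2642 and 3634 CPM in heterozygous libraries at e18.5, without overlap (log2 fold change 0.68, adjusted p = 0.0189). L1VL4 measured 7121, 8515 and 6663 CPM in knockout and 3239, 4677 and 6416 CPM in heterozygous libraries (log2 fold change 0.64, adjusted p = 0.0334). Its groups were apart as well, by a small gap between knockout replicate 3 and heterozygous replicate 3. Lx2A1, of the Lx families, measured 871, 1102 and 868 CPM in knockout and 479.6, 603 and 772 CPM in heterozygous libraries (log2 fold change 0.61, adjusted p = 0.0328), and Lx2A rose likewise (627 ± 98.7 CPM in knockout and 413 ± 105 in heterozygous libraries, SD, n = 3, log2 fold change 0.60, adjusted p = 0.04). These 4 calls ended without replicate 1 or 2 of either genotype, with adjusted p of up to 0.211 for L1_Mm, 0.427 for L1VL4, 0.242 for Lx2A1 and 0.292 for Lx2A, and that of Lx2A ended also without knockout replicate 3. No member was called without heterozygous replicate 2, and 1 was called when replicate 1 of either genotype, or knockout replicate 2, was left out. Without heterozygous replicate 3 the count was 16. Scaled on the gene totals alone 2 names were called, and with the repeats' own TMM factors 20 rodent names were called higher and 8 L1M names lower. Of all repeat names gene totals called 6.81% higher and 0.442% lower, and the repeats' own TMM factors 12.8% higher and 5.04% lower.

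Several rodent names just missed the threshold at e18.5. L1_Mur1 and L1_Mur2 had log2 fold changes of 0.60 and 0.59 (adjusted p = 0.0554 and 0.0582), and L1_Mus1 had 0.59 (adjusted p = 0.0582). L1_Mus1 measured 8955, 10611 and 9167 CPM in knockout and 4531, 6044 and 8501 CPM in heterozygous libraries, which did not overlap. L1_Mus2, L1_Mus4 and Lx had 0.57, 0.55 and 0.48 (adjusted p = 0.0704, 0.0888 and 0.174), again with all knockout libraries above. In L1_Mus3, L1VL2, L1_Mur3 and L1_Rod the genotypes overlapped, at log2 fold changes of 0.43, 0.40, 0.27 and 0.23. Lx8, the rodent name with the most counts and the smallest effect, at 27365 ± 5064 CPM in knockout and 24115 ± 4217 CPM in heterozygous libraries (SD, n = 3), had a log2 fold change of 0.18, with a 95% interval of -0.22 to 0.58. For Lx9 and Lx7 the log2 fold changes were 0.23 and 0.23.

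Of the 70 L1M names 0 were called at e18.5 by edgeR or by DESeq2, and 1 had an unadjusted p under 0.05. Their median log2 fold change was 0.06, near the 0.06 of the 12 L2, L3, MIR and CR1 names, older repeats of other families, of which 0 were called. From younger to older the medians were 0.12 for L1MA, -0.01 for L1MB, 0.09 for L1MC, 0.02 for L1MD and 0.01 for L1ME. L1M2, the L1M name with the highest mean level, measured 6844, 8362 and 6005 CPM in knockout and 5136, 6583 and 7409.7 CPM in heterozygous libraries, which overlapped (log2 fold change 0.15, 95% interval -0.26 to 0.56). The intervals of L1M4 and L1M5 were -0.35 to 0.47 and -0.35 to 0.47. Lx2A, the smallest called value, had 0.60 with an SE of 0.20, and differences between names were not tested. L1P5 and L1PB4 had log2 fold changes of 0.20 and -0.22 and were not called. No L1M name lay above in all knockout libraries, and 1 lay below, where 1.59% of all repeat names did.

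Macrophage and white blood cell markers (6 of 7 measured, none at 0 in all libraries of a group) summed to 88.5 to 109 CPM in knockout and 29.0 to 42.5 CPM in heterozygous libraries at e18.5, without overlap. At e16.5 the same list summed to 33.8 to 51.2 CPM in knockout and 31.5 to 44.7 CPM in heterozygous libraries. At d2 it summed to 43.7 to 65.9 CPM in knockout and 49.8 to 65.7 CPM in heterozygous libraries. Most of the e18.5 sum came from Mrc1, a macrophage mannose receptor, at 63.8 to 78.7 CPM in knockout and 15.8 to 25.4 CPM in heterozygous libraries. Adgre1 (11.7 to 14.6 CPM in knockout and 3.45 to 4.52 CPM in heterozygous libraries) and Ptprc (4.94 to 8.37 CPM in knockout and 3.63 to 4.63 CPM in heterozygous libraries) did not overlap between genotypes either, whereas Csf1r, Cd68 and Lyz2 did. The part of these cells in the e18.5 values was not tested.

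**Figure D3:**
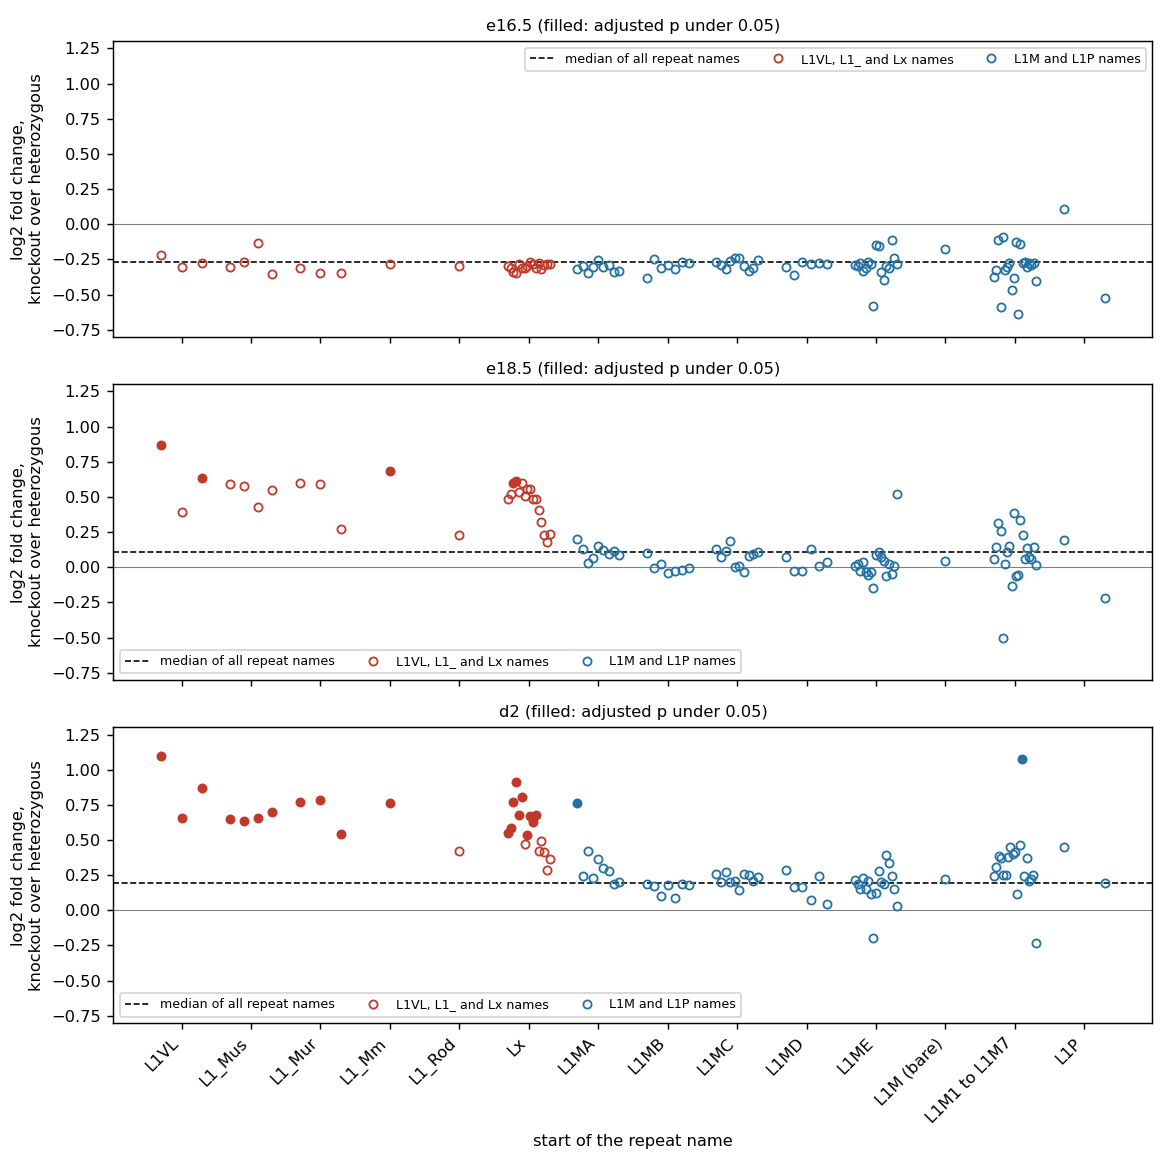
Log2 fold change of each repeat name, knockout over heterozygous, by start of the name, at e16.5 (top), e18.5 (middle) and d2 (bottom); filled points had an adjusted p under 0.05 and the dashed line is the median of all repeat names. Points of the L1VL, L1_ and Lx names lie above the dashed line at e18.5 and d2 for all 28, while L1M and L1P names lie on both sides of it. Of the L1M names, 22 of 70 lie above it at e18.5 and 45 of 69 at d2.

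At d2 most rodent names rose in knockout cells. Of 28, 21 were called higher (75%) and 0 lower, beside 8.51% and 0.0925% of all 1081 repeat names tested. All 28 log2 fold changes were positive, as were those of 917 of the 1081 repeat names and 67 of 69 L1M names. The rodent names had a median of 0.65 and a range of 0.29 to 1.09, where all repeat names had a median of 0.20 and L1Md_ names 1.08 (5 of 6 rose). Knockout libraries were all above heterozygous ones in 10 of the 28, where 10.5% of all repeat names were. Relative to the median of all repeat names L1VL1 was higher by 0.90 on the log2 scale. With the repeats' own TMM factors, which brought the median of all names to -0.01, 26 rodent names were called higher, and 17 with gene totals alone. Of all repeat names 8.72% and 6.2% were called higher in these scalings.

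L1VL1 measured 632, 497, 709 and 617 CPM in knockout libraries at d2 and 304, 207, 279 and 355 CPM in heterozygous libraries. Each knockout value was above each heterozygous one, and replicate 2 was the lowest in both genotypes. The increase was 2.14-fold (log2 fold change 1.09, SE 0.18, adjusted p = 1.35e-07). Lx2A1 measured 626, 441, 599 and 549 CPM in knockout and 319, 223, 272 and 355 CPM in heterozygous libraries (log2 fold change 0.92, adjusted p = 1.99e-05), again without overlap. L1VL4 followed with 3510.5, 2160.2, 3745 and 3244 CPM in knockout and 1795, 1227, 1757 and 2122 CPM in heterozygous libraries (log2 fold change 0.87, adjusted p = 6.78e-05). Here knockout replicate 2 lay only just above heterozygous replicate 4.

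Lx3A rose by a log2 fold change of 0.80 (adjusted p = 0.000356), L1_Mur2 by 0.78 (adjusted p = 0.00043) and L1_Mur1 by 0.77 (adjusted p = 0.00063). Lx2A and L1_Mm had 0.77 and 0.76 (adjusted p = 0.000698 for both). L1_Mm measured 1996, 1331, 2111 and 1889 CPM in knockout and 1069.5, 785, 1131 and 1309 CPM in heterozygous libraries, which did not overlap, whereas in L1_Mur1 and L1_Mur2 knockout replicate 2 fell within the heterozygous range. All 4 L1_Mus names rose, with log2 fold changes of 0.65 (L1_Mus1), 0.63 (L1_Mus2), 0.66 (L1_Mus3) and 0.70 (L1_Mus4), and adjusted p from 0.00254 to 0.00721. Among them L1_Mus3 had no overlap, at 7497, 6081, 8501 and 6549.9 CPM in knockout and 4413, 3841, 5006 and 4809 CPM in heterozygous libraries. L1VL2, Lx and L1_Mur3 rose as well (log2 fold changes 0.66, 0.55 and 0.54, adjusted p = 0.00498, 0.0264 and 0.0268).

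The abundant Lx7, Lx8 and Lx9 and L1_Rod were not called at d2, as at e18.5, at log2 fold changes of 0.41, 0.29, 0.37 and 0.42 (adjusted p = 0.15, 0.415, 0.234 and 0.154). Lx8 measured 17340.5, 13298, 19739 and 16452 CPM in knockout and 13091, 10471, 14846 and 16198 CPM in heterozygous libraries, with overlap. Its 95% interval ran from -0.05 to 0.62, and its difference from L1VL1 was not tested. Of the 23 calls at d2, 15 were made in all 8 fits without 1 library: L1VL1, L1VL4, L1_Mm, L1_Mur1, L1_Mur2, L1_Mus3, L1_Mus4, Lx2A, Lx2A1, Lx2B, Lx3A, Lx3_Mus, Lx4B, L1M3f and L1MA10. The calls of Lx and L1_Mur3 ended in 6 of the 8 fits, all but those without knockout replicate 2 or heterozygous replicate 4 (adjusted p of up to 0.164 and 0.174). L1_Mus1 and L1_Mus2 missed the threshold without knockout replicate 1 (adjusted p of up to 0.0597 and 0.0541), and L1_Mus2 and L1VL2 without knockout replicate 3 (0.053 for L1VL2). Without knockout replicate 2, the library with 101 CPM of Tex15, 37 names rose, of which 27 were rodent names and 10 L1M names. The share of all repeat names called in that fit is not given here, so these counts show only how far the calls held.

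Among L1M names 2 of 69 tested rose at d2 (2.9%, beside 8.51% of all repeat names), L1M3f and L1MA10. Without knockout replicate 2 the L1M count was 10. L1M3f, which the counts hold at a low level of 105 to 275 counts per d2 library, measured 24.4, 32.002, 31.0 and 23.1 CPM in knockout and 10.6, 12.4, 15.9 and 13.4 CPM in heterozygous libraries. The groups were apart, and the log2 fold change was 1.07 (SE 0.25, adjusted p = 0.000411). At e18.5 the same name had overlapped between genotypes (log2 fold change 0.23). L1MA10, of the youngest L1M letter, measured 245, 144, 246 and 229 CPM in knockout and 121, 96.5, 141 and 148 CPM in heterozygous libraries. Knockout replicate 2 lay below the highest heterozygous value and far from the other 3 knockout libraries, so the groups overlapped. The log2 fold change was 0.76 (adjusted p = 0.000984).

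The L1M names as a class, the called ones included, had a median log2 fold change at d2 of 0.22, and by letter 0.28 (L1MA), 0.18 (L1MB), 0.22 (L1MC), 0.17 (L1MD) and 0.19 (L1ME). The 12 L2, L3, MIR and CR1 names had a median of 0.08, with 0 called. With the repeats' own TMM factors the L1M median was 0.004. Summed L1M counts were 2.05, 1.70, 2.00 and 2.00 times those of the L2, L3, MIR and CR1 names in knockout libraries. In heterozygous libraries they were 1.79, 1.69, 1.77 and 1.73 times. L1M2, L1M4 and L1M5 had log2 fold changes of 0.30, 0.25 and 0.22 with 95% intervals of -0.04 to 0.65, -0.10 to 0.59 and -0.13 to 0.57. L1P5 and L1PB4 had 0.45 and 0.19 and were not called (adjusted p = 0.317 and 0.673). L1M2a1 was not tested at d2, with 70 counts over the 8 libraries.

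All 5 names called at e18.5 were also called at d2, which is 100% of the e18.5 calls and 21.7% of the d2 calls. Across the 28 rodent names the log2 fold changes at the 2 ages, which come from different libraries, had a Pearson correlation of 0.88 and a Spearman correlation of 0.85. Over the 69 L1M names with both values the correlations were 0.23 and 0.35. These describe names that share reads, libraries and scaling, and carry no test. At both ages L1VL1 had the largest value of the rodent names and Lx8 the smallest.

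**Figure D4:**
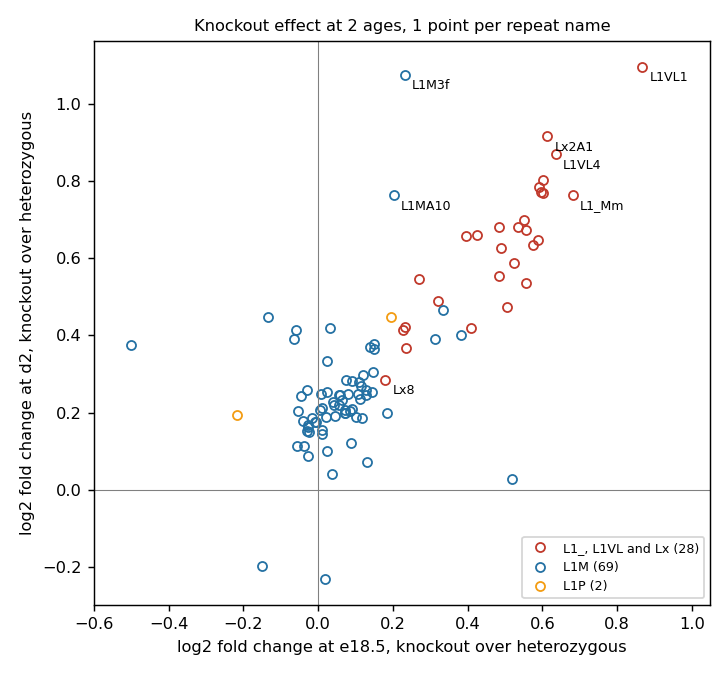
Log2 fold change, knockout over heterozygous, at e18.5 (horizontal) and d2 (vertical), 1 point per repeat name tested at both ages. Rodent names run along a line from Lx8 (0.18 and 0.29) to L1VL1 (0.87 and 1.09), while L1M3f (0.23 and 1.07) and L1MA10 (0.20 and 0.76) stand away from the other L1M names.

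Whether the knockout effect differed between ages was tested in a joint fit of all 20 libraries. From e16.5 to e18.5 the effect was larger at e18.5 in 16 of 28 rodent names, 0 of 70 L1M names and 0 of 2 L1P names, beside 7.14% of all 1148 repeat names; 2 L1M names had an unadjusted p under 0.05. The difference of log2 fold changes had a median of 0.80 in rodent, 0.35 in L1M and 0.37 in all repeat names. With the repeats' own TMM factors 15 names were called higher, beside 5.15% of all repeat names, and the median of all names was -0.03. L1VL1 led with 1.07 (SE 0.27, adjusted p = 0.00361), then Lx2A1 with 0.94 (adjusted p = 0.0132), L1_Mm with 0.94 (adjusted p = 0.0135), Lx2A with 0.92 (adjusted p = 0.0186) and L1_Mur2 with 0.91 (adjusted p = 0.0187). DESeq2 called 4 names. The count was 0 without heterozygous replicate 1 of e18.5 or knockout replicate 2 of e16.5, and 1 without heterozygous replicate 2 or 3 of e16.5, heterozygous replicate 2 of e18.5 or knockout replicate 2 of e18.5. It was 5 without knockout replicate 1 of e16.5 and 10 without knockout replicate 1 of e18.5.

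From e18.5 to d2 no member's knockout effect was called different by edgeR or DESeq2, beside 0.61% of all repeat names called higher and 0.436% lower, and 3 names had an unadjusted p under 0.05. The difference, d2 minus e18.5, had a median of 0.16 in rodent and 0.17 in L1M names.

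Levels at successive ages were compared within each genotype. Each age came in its own deposited table, so age and any difference in how the tables were made cannot be told apart. Between e16.5 and e18.5 heterozygous cells showed 0 calls among the 100 names with edgeR and with DESeq2, beside 0.697% of all repeat names called higher and 0.871% lower, and 2 names had an unadjusted p under 0.05. Median log2 fold changes, e18.5 over e16.5, were 0.10 in rodent and 0.0048 in L1M names. In knockout cells over the same interval 42 names rose, 27 of 28 rodent and 15 of 70 L1M names, where 40.8% of all repeat names rose and 0.523% fell. The medians there were 0.87 in rodent, 0.35 in L1M and 0.45 in all repeat names.

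L1VL1 in knockout cells measured 1809, 2042 and 1752 CPM at e18.5, against 847, 662 and 949 CPM at e16.5 (log2 fold change 1.19, adjusted p = 2.57e-07). L1_Mur1, L1_Mur2 and Lx2A rose by log2 fold changes of 1.14, 1.12 and 1.10. The leading L1M names were L1M3c, L1ME5, L1MEg1 and L1M3d, at 0.85, 0.80, 0.80 and 0.81. With the repeats' own TMM factors the 42 calls became 26 higher and 17 lower, beside 14.9% and 13.3% of all repeat names. The lower ones were all L1M names, and the calls of L1M3d and L1MEg1 ended. The call of L1M3c ended when knockout replicate 2 of e18.5 was left out (adjusted p = 0.083), and that of L1MEg1 with either that library or knockout replicate 1 of e16.5 left out (adjusted p of up to 0.0606). The count was 25 without knockout replicate 2 of e18.5 and 27 without knockout replicate 2 of e16.5.

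From e18.5 to d2 most names fell in both genotypes relative to gene counts. In heterozygous cells 99 of 100 fell (28 rodent, 69 L1M and 2 L1P names), where 78.6% of all repeat names fell and 0.697% rose, with medians of -1.11 in rodent, -0.65 in L1M, -1.88 in L1Md_ and -0.74 in all repeat names. In knockout cells 75 fell (28 rodent, 46 L1M and 1 L1P), where 70.6% of all repeat names fell and 1.31% rose. Medians there were -1.004 in rodent, -0.51 in L1M, -1.99 in L1Md_ and -0.67 in all repeat names. Relative to other repeats, most rodent names were called lower. With the repeats' own TMM factors the median of all repeat names was -0.04 in heterozygous and -0.01 in knockout cells. In heterozygous cells 17 L1M names were then called higher and 9 lower, while 27 rodent names were called lower. Of all repeat names 16.7% were called higher and 24% lower there. In knockout cells 35 L1M names were called higher and 5 lower, while 20 rodent names were called lower, beside 23.1% and 25.1% of all repeat names.

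In heterozygous cells L1VL1 measured 304, 207, 279 and 355 CPM at d2, against 679, 942 and 1447 CPM at e18.5, a log2 fold change of -1.84 (adjusted p = 5.21e-19). L1VL4, L1_Mur2 and Lx3A had -1.47, -1.41 and -1.39. Of the L1M names L1MEg1 (-1.36), L1M3d (-1.28), L1MEd (-1.01) and L1MA4A (-0.996) had the smallest p. L1PB4 and L1P5 fell by 0.95 and 0.60 on the log2 scale, calls that ended with the repeats' own scaling, where L1P5 had 0.12, and that of L1P5 also without heterozygous replicate 3 of e18.5 (adjusted p = 0.0645).

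Knockout cells showed L1VL1 at 632, 497, 709 and 617 CPM at d2, against 1809, 2042 and 1752 CPM at e18.5 (log2 fold change -1.61, adjusted p = 1.22e-15). L1_Mm, L1_Mus1 and L1_Mur1 had -1.27, -1.24 and -1.23, and the L1M names L1MEg2, L1MEg1, L1MCb and L1MEd had -1.30, -1.21, -0.88 and -0.86. L1PB4 had -0.53 (adjusted p = 0.0247), a call that ended without knockout replicate 2 of either age (adjusted p of up to 0.537) and with the repeats' own TMM factors, where it had 0.14. The d2 level of L1VL1 in knockout cells, 497 to 709 CPM, lay below the 679 to 1447 CPM of heterozygous cells at e18.5 in 3 of 4 libraries.

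**Figure D5:**
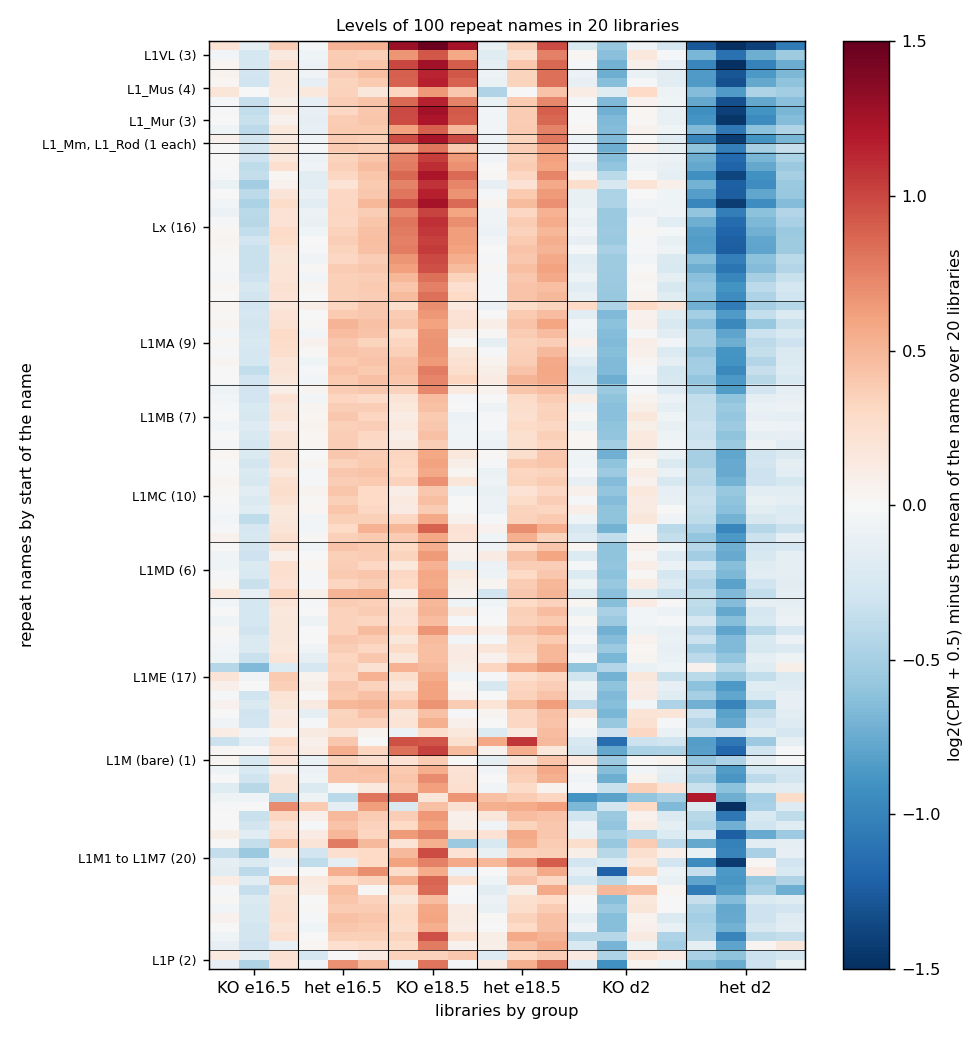
Level of each of the 100 repeat names (rows, by start of the name) in each of the 20 libraries (columns, by group), as log2(CPM + 0.5) minus the mean of that name over the libraries, with colour limits at 1.5 on either side. Most rodent names, at the top, are deepest red in the knockout libraries of e18.5 and deepest blue in the heterozygous libraries of d2.

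Genes known to silence L1 or other retrotransposons were read from a list of 30, of which 28 were measured and tested. At e16.5 only Tex15 passed, and it fell (0.0061% of all genes fell). At e18.5 Tex15 and Gtsf1 fell (of all genes 0.271% fell and 2.06% rose). Gtsf1 encodes a small zinc finger partner of PIWI proteins. It measured 27.2 ± 1.48 CPM in knockout and 83.2 ± 12.7 CPM in heterozygous libraries (SD, n = 3, log2 fold change -1.61, adjusted p = 5.58e-06), and it was called whichever of the 6 libraries was left out, with adjusted p no higher than 0.000198. At d2 only Fam208a passed, and it rose (2.03% of all genes rose). Fam208a encodes TASOR, a subunit of the HUSH silencing complex. It measured 288 ± 41.8 CPM in knockout and 179 ± 27.99 CPM in heterozygous libraries (SD, n = 4, log2 fold change 0.68, adjusted p = 0.00731; up to 0.0396 without 1 library). Tex15 itself had a log2 fold change of -4.97 at d2 (adjusted p = 0.167); leaving out knockout replicate 2 gave -8.45 (adjusted p = 3.09e-14). The other 25 listed genes tested, including Piwil4, Dnmt3l and Exd1, did not pass at any age, and the list's median log2 fold changes of 0.19 (e16.5), -0.04 (e18.5) and -0.04 (d2) stood beside -0.01, -0.01 and -0.02 for all genes.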

How the data were processed

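The deposited gene and repeat tables hold whole-number read counts per gene symbol or repeat name, and a deposited family table holds estimated counts per repeat family, used only as a ratio. STAR, featureCounts, edgeR, Bowtie and the build mm9 are named, without versions or order, per the submitters' processing notes. How reads mapping to several places were shared, and whether strand was used, is not given in the sources used here, so near-identical families may share reads. No repeat sequences were used.

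Counts of all repeat names were tested with edgeR 4.0.16 (R 4.3.3, limma 3.58.1), by quasi-likelihood F tests with robust dispersion. Library size was the gene count total times a TMM (trimmed mean of M values) factor from genes. Names passed edgeR's expression filter (10 counts, 15 in total), and p-values were adjusted by Benjamini-Hochberg over all repeat names, with a threshold of 0.05. Genotypes were compared in a fit per age; ages and their interaction with genotype in 1 fit of 6 groups, over 23853 gene symbols shared by the tables, which also set the printed CPM. Standard errors are the log2 fold change over the root of F, and 95% intervals 1.96 of them either way. Totals per library set counting precision only.

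The members, gene lists and comparisons were chosen with earlier results of these data known. Named by rule were, per class, up to 8 called names with the smallest p in a genotype comparison and 4 in an age comparison, up to 5 per interaction, all L1_ and L1VL names, Lx, the 3 most abundant names per class, Tex15 and up to 3 called silencing genes. Alternatives were DESeq2 1.42.0, no filter or a CPM filter of 1, gene totals without TMM, the repeats' own TMM factors or totals, 1 fit of all ages, a replicate block, and leaving out each library. Leaving out libraries for the silencing genes was chosen after seeing the data. The procedure was tested on simulated data. Of 190 library pairs 0 were identical.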

Additional observations from a re-analysis of the deposited data

Results flagged for a closer look

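The knockout effect, as a log2 fold change, differed between e18.5 and e16.5 in 16 rodent names by edgeR's interaction test in the fit of all 20 libraries. The named ones were L1VL1 (1.07), Lx2A1 (0.94), L1_Mm (0.94), Lx2A (0.92) and L1_Mur2 (0.91). The call of L1VL1 ended without heterozygous replicate 1 of e18.5 or knockout replicate 2 of e16.5 (adjusted p of up to 0.0804), and those of the other 4 when any of 6 of the 12 libraries was left out (adjusted p at most 0.207).

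In the groups of 4 libraries at d2, 1 library lay far from the other 3 by Dixon's gap test in 6 of 76 groups tested, where chance flags about 1 in 20. Of these, 5 were knockout replicate 2, the library with 101 CPM of Tex15: it had 2886 CPM of L1_Mus1, 2945 CPM of Lx, 144 CPM of L1MA10, 21.5 CPM of L1MEg1 and 20.4 CPM of L1P5. Knockout replicate 3 had 46.7 CPM of L1M3d.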

How the results depend on the processing

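At e18.5 the 5 calls became 12 in 1 fit of all ages, 2 with gene totals, 28 (20 higher and 8 lower) and 26 (19 higher and 7 lower) with the repeats' own TMM factors and totals, and 0 to 16 without 1 library. Of all repeat names at e18.5, gene totals called 6.81% higher, the repeats' own TMM factors 12.8% higher and 5.04% lower, and their totals 11% and 5.21%. Counts without 1 library were 0 to 1 at e16.5 and 16 to 37 at d2. Over ages they were 0 to 1 (heterozygous, e18.5 over e16.5), 87 to 99 (heterozygous, d2 over e18.5), 25 to 50 (knockout, e18.5 over e16.5) and 54 to 86 (knockout, d2 over e18.5), and 0 to 20 and 0 to 0 for the interactions with e16.5 and d2. For e18.5 over e16.5, gene totals gave 1 call in heterozygous and 83 in knockout cells, and the repeats' own TMM factors or totals 1 in heterozygous cells. For d2 over e18.5 in heterozygous cells the repeats' own TMM factors gave 53 (17 higher, 36 lower) and their totals 48 (6 higher, 42 lower). Of all repeat names these scalings called 16.7% higher and 24% lower, and 11.2% and 30.2%. The same scalings split knockout calls into 26 higher and 17 lower, and 26 and 14, for e18.5 over e16.5, and into 36 higher and 25 lower, and 21 and 31, for d2 over e18.5. Of all repeat names in knockout cells they called 14.9% higher and 13.3% lower, and 16.3% and 10.2%, for e18.5 over e16.5. For d2 over e18.5 these shares were 23.1% and 25.1%, and 16.9% and 32.3%. DESeq2 called 4 in the interaction of e18.5 with e16.5, and the repeats' own TMM factors and totals 2 and 1 in that of d2 with e18.5. Of all repeat names the repeats' own TMM factors and totals called 1.13% and 0.96% higher in the latter, and 1.31% lower each. Under these 2 scalings L1P5 in heterozygous cells had 0.12 and 0.040, and L1PB4 in knockout cells 0.14 and 0.051, for d2 over e18.5. The cause of these shifts was not tested. The share of all repeat names is not given for DESeq2, fits without 1 library, 1 fit of all ages or the replicate block. Nor is it given for gene totals over ages. Counts of calls in these settings show only how far the calls held. Of 1497 alternative values for named members 1347 kept direction and side of the threshold. These include names not called in the main fit that stayed uncalled, such as those of e16.5. Of the 5 calls at e18.5, 0 were made in every fit without 1 library. Silencing gene calls numbered 1 to 3 at d2, 2 to 2 at e18.5 and 1 to 1 at e16.5 without 1 library, 3 being Asz1, Fam208a and Tex15 without knockout replicate 2.

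The labels give replicates only a shared number across genotypes. The correlation of deviations ran from -0.25 to 0.11 in same-number pairs and from -0.39 to 0.37 in other pairs. Same-number pairs at e18.5 had 0.11, 0.05 and 0.08. Whether replicates were paired is not settled by these values. With a replicate block 9 names were called at e18.5, 39 at d2 and 1 in heterozygous cells for e18.5 over e16.5.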

Other observations

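In the family table, L1 had 1.19 to 1.36 times the summed counts of all L1, Lx, L1Md_ and HAL1 names in knockout libraries of e18.5, against 0.906 to 1.04 in heterozygous libraries. The ratio was 1.054 to 1.21 in knockout and 0.920 to 1.02 in heterozygous libraries at d2, and 0.957 to 1.04 and 0.939 to 0.987 at e16.5. The labels do not say how the 2 tables share reads.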
